A study of Mus musculus with 2 samples.

Results

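The genes described here are 10 genes that store, take up, carry, release or sense iron, out of 21905 genes measured in each library. They were chosen by name: the ferritin chains Fth1 and Ftl1, the transferrin receptor Tfrc, transferrin itself (Trf), the importer Slc11a2, the exporter Slc40a1, the heme-degrading enzyme Hmox1, the ferritin receptor Ncoa4, and the sensors Aco1 and Ireb2. All 10 were found in both libraries. They were followed in single cells of mouse long bone, from which blood cells had been depleted, after vehicle (Veh) or doxorubicin (Doxo), a chemotherapy drug that damages DNA and can bind iron.

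The mice were 12-week-old females, and the bones were femurs and tibias digested with collagenase 96 h after Veh or Doxo at 10 mg/kg, a dose and time given in the study's methods. Cells carrying CD45 were removed with magnetic beads, and the rest were sorted against CD45, CD71 and Ter119, to which the labels add CD31. The number of mice behind each library and whether they were pooled were not given. There was 1 library for each condition, made with the 10x Genomics Chromium 3′ v3 kit. No difference below therefore has a replicate error or a p-value.

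Cells take up iron bound to transferrin through the transferrin receptor, and import it from endosomes through Slc11a2 (DMT1). They keep it in ferritin, a shell built of heavy (Fth1) and light (Ftl1) chains, whose breakdown is guided by Ncoa4. Slc40a1 (ferroportin) is the known iron exporter of mammalian cells, and Hmox1 frees iron from heme. Aco1 (IRP1) and Ireb2 (IRP2) bind a hairpin, the iron-responsive element, in several of these messages: binding in the 5′ untranslated region holds back translation and binding in the 3′ region protects the message, so much of this system acts outside RNA level.

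The hairpins are shown because they mark the members in which letters of that known control element were found. Transcripts of the GENCODE M21 annotation (build GRCm38) were searched for a C, 5 bases, the loop CAGTGN without G at its last base, and 5 bases pairing with the first 5 (G with T allowed), on the transcript strand. Matches lay in the untranslated regions of 4 of the 10 members, in the 5′ region of Fth1, Ftl1 and Slc40a1 and 4 times in the 3′ region of Tfrc. Of 21866 coding genes searched, 0.105% held a match in a 5′ and 0.457% in a 3′ untranslated region. No match in the other 6 members says only that these letters were not found there. The loop is in capitals.
Fth1, chr19:9982732-9982760, plus strand: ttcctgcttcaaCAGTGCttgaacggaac
Ftl1, chr7:45459779-45459807, minus strand: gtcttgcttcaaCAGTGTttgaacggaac
Slc40a1, chr1:45925465-45925493, minus strand: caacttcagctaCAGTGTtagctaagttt
Tfrc, chr16:32631219-32631247, plus strand: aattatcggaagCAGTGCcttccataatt
Tfrc, chr16:32631598-32631626, plus strand: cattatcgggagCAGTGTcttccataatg
Tfrc, chr16:32631663-32631691, plus strand: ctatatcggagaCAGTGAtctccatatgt
Tfrc, chr16:32631710-32631738, plus strand: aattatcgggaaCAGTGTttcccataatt

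Each library held 2488 cells, with 24859695 unique molecular identifiers (UMIs, counts of captured RNA molecules) in Veh and 20792012 in Doxo. The median cell had 8693 UMIs in Veh and 7348 in Doxo, and 4 cell barcodes occurred in both libraries. Cells were clustered with every iron gene kept out of the genes that drove the clustering, and clusters were named from marker genes. The 6 named classes were CAR-like cells (CXCL12-abundant reticular cells, the stromal cells that support blood stem cells; 367 Veh and 428 Doxo cells), bone and cartilage fibroblast-like cells (1087 and 1347), arteriolar and endosteal fibroblast-like cells (434 and 260), osteoblast-like cells (207 and 125), chondrocyte-like cells (246 and 204) and endothelial-like cells (103 and 69). A cluster of 44 Veh and 55 Doxo cells stayed unnamed. Endothelial-like cells were present although the labels name CD31 among the depleted antigens. The osteoblast-like cells were shallow, with a median of 3090 and 2930 UMIs, against 19484 and 14770 in chondrocyte-like cells.

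The libraries also differed in RNA of blood cells. The summed level of 8 erythroid genes lay between 181 and 686 CPM (UMIs of a gene per 1000000 UMIs of the class) in the 6 classes of Veh, and between 0 and 14.3 CPM in Doxo. The summed level of 6 neutrophil genes was 1572 CPM in Veh and 85.2 CPM in Doxo in CAR-like cells, and 1298 and 99.4 CPM in bone and cartilage fibroblast-like cells. It lay between 39.0 and 150 CPM in both libraries in the other 4 classes. Leaving out cells with at least 5 neutrophil UMIs removed 28 Veh and 13 Doxo cells, of which 8 and 3 were CAR-like. Leaving out cells with at least 5 hemoglobin UMIs removed 128 and 1, of which 38 and 0 were CAR-like. Macrophages are the best known iron recyclers and express Slc40a1 and Hmox1. The summed level of 9 macrophage genes was 19.2 CPM in Veh and 19.0 in Doxo in CAR-like cells, where Csf1r had 24 and 35 UMIs and Cd68 15 and 24. It lay between 7.56 and 12.3 CPM in the 4 other classes outside endothelial-like cells, where it was 210 and 311 CPM with 141 and 100 UMIs from Mrc1. C1qa, C1qb, C1qc and Adgre1 had at most 5 UMIs each in any class and library. Without cells holding a UMI of any of the 9, Slc40a1 was still past 1.5-fold higher and Hmox1 past 1.5-fold lower in Doxo in CAR-like cells. A lower level of a gene in a class can mean less RNA per cell or fewer cells that make it, and sums over a class do not tell these apart.

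Trf and Slc40a1 were above all genes of CAR-like cells: these cells held 91.1% of all Trf UMIs in Veh and 96.2% in Doxo, and 58.5% and 82.6% of all Slc40a1 UMIs, while they held 10.1% and 16.2% of all UMIs of any gene. They also held 39.5% and 41.0% of Hmox1 and 23.4% and 48.3% of Aco1. Ferritin heavy chain was highest in both fibroblast-like classes. Tfrc had its highest counted levels in chondrocyte-like and bone and cartilage fibroblast-like cells. The plot of levels by class shows these patterns for each gene. Levels are compared between classes and libraries only, not between genes, because reads were taken from the 3′ end.

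**Figure D1:**
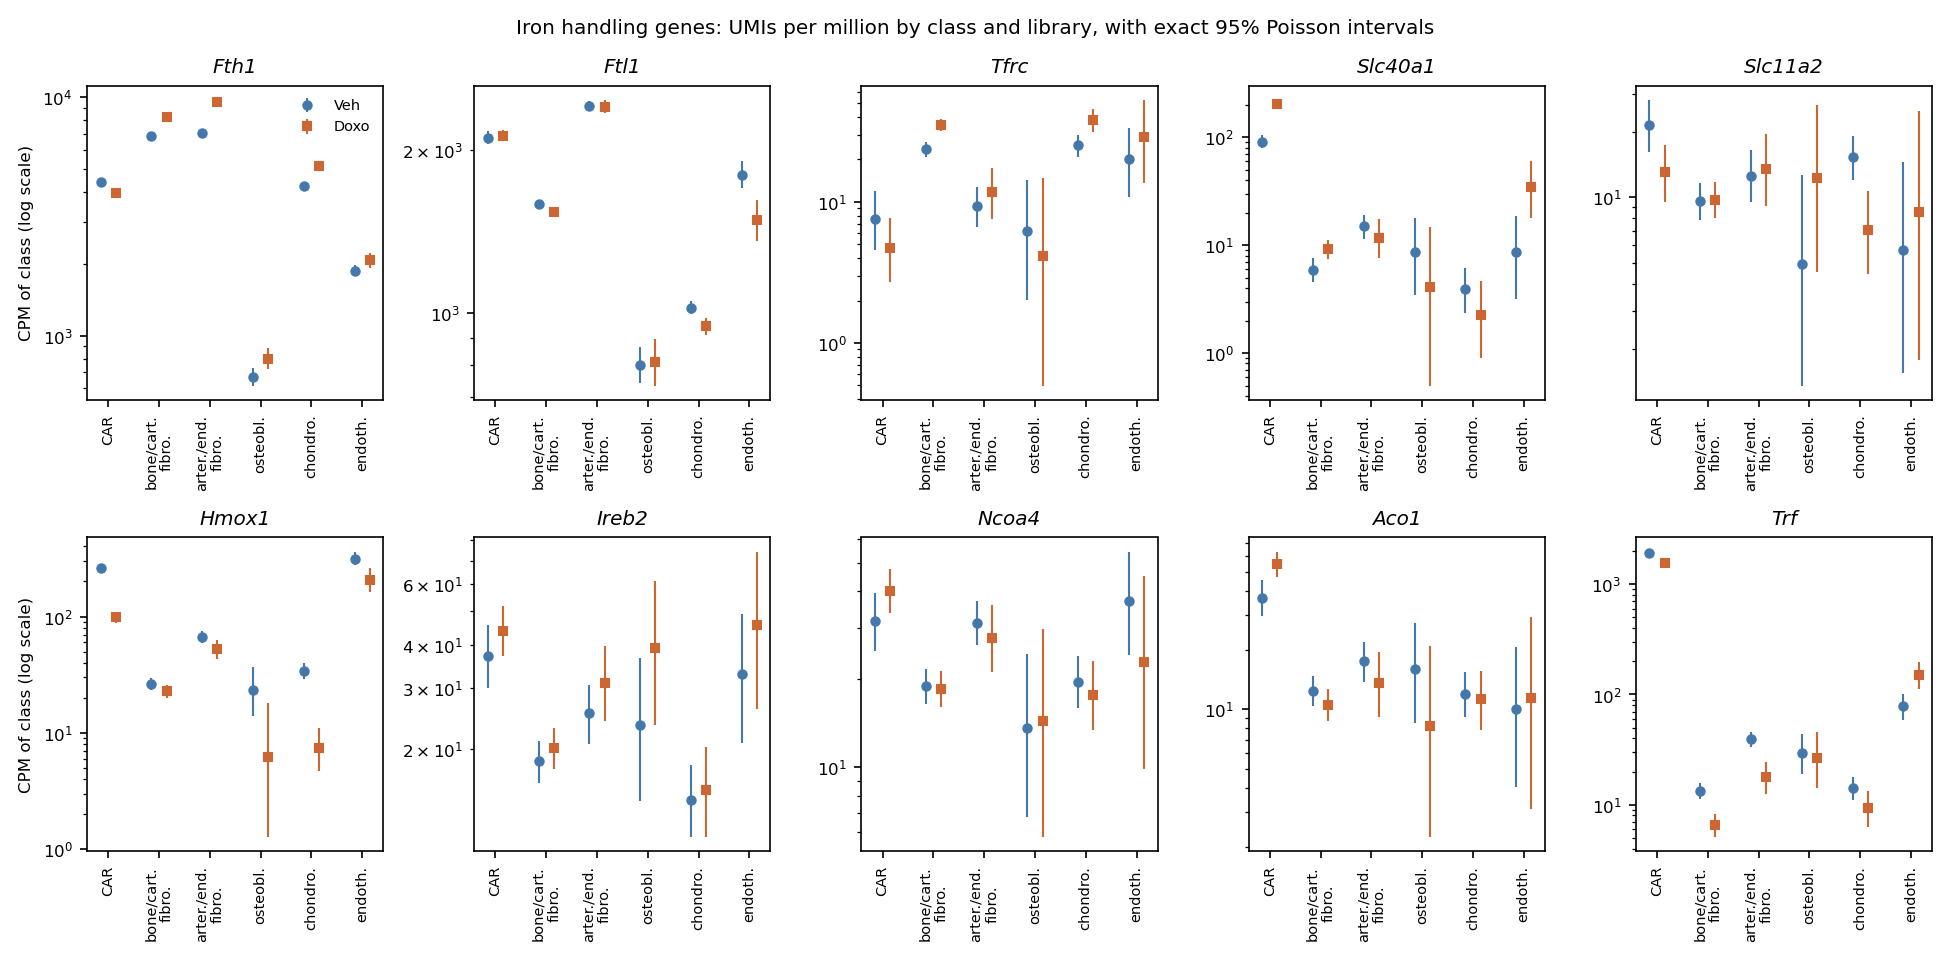
Level of each of the 10 iron genes (CPM, log axis, a separate scale for each gene) in the 6 cell classes, with circles for Veh, squares for Doxo and bars for exact 95% Poisson intervals, which cover counting error only. Trf and Slc40a1 stand highest in CAR-like cells, Hmox1 in endothelial-like and CAR-like cells, and Fth1 in the fibroblast-like classes.

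For each gene the Doxo level was divided by the Veh level within a class, on the log2 scale with 0.5 UMI added to each sum. The 95% interval given with each ratio is exact and covers counting error only, since amplified molecules of 1 library are no replicates. A gene was counted where it had at least 50 UMIs in the class over both libraries, and called past 1.5-fold where the ratio reached 1.5-fold in either direction. Among CAR-like cells 9 members were counted, of which 1 was past 1.5-fold higher (Slc40a1) and 2 lower (Hmox1 and Slc11a2) in Doxo. Of all 9473 genes counted there, 10.3% were higher and 7.81% lower by this measure. The median log2 ratio was 0.01 over the members and 0.05 over all genes counted. The members did not share a direction, so each is described by itself.

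**Figure D2:**
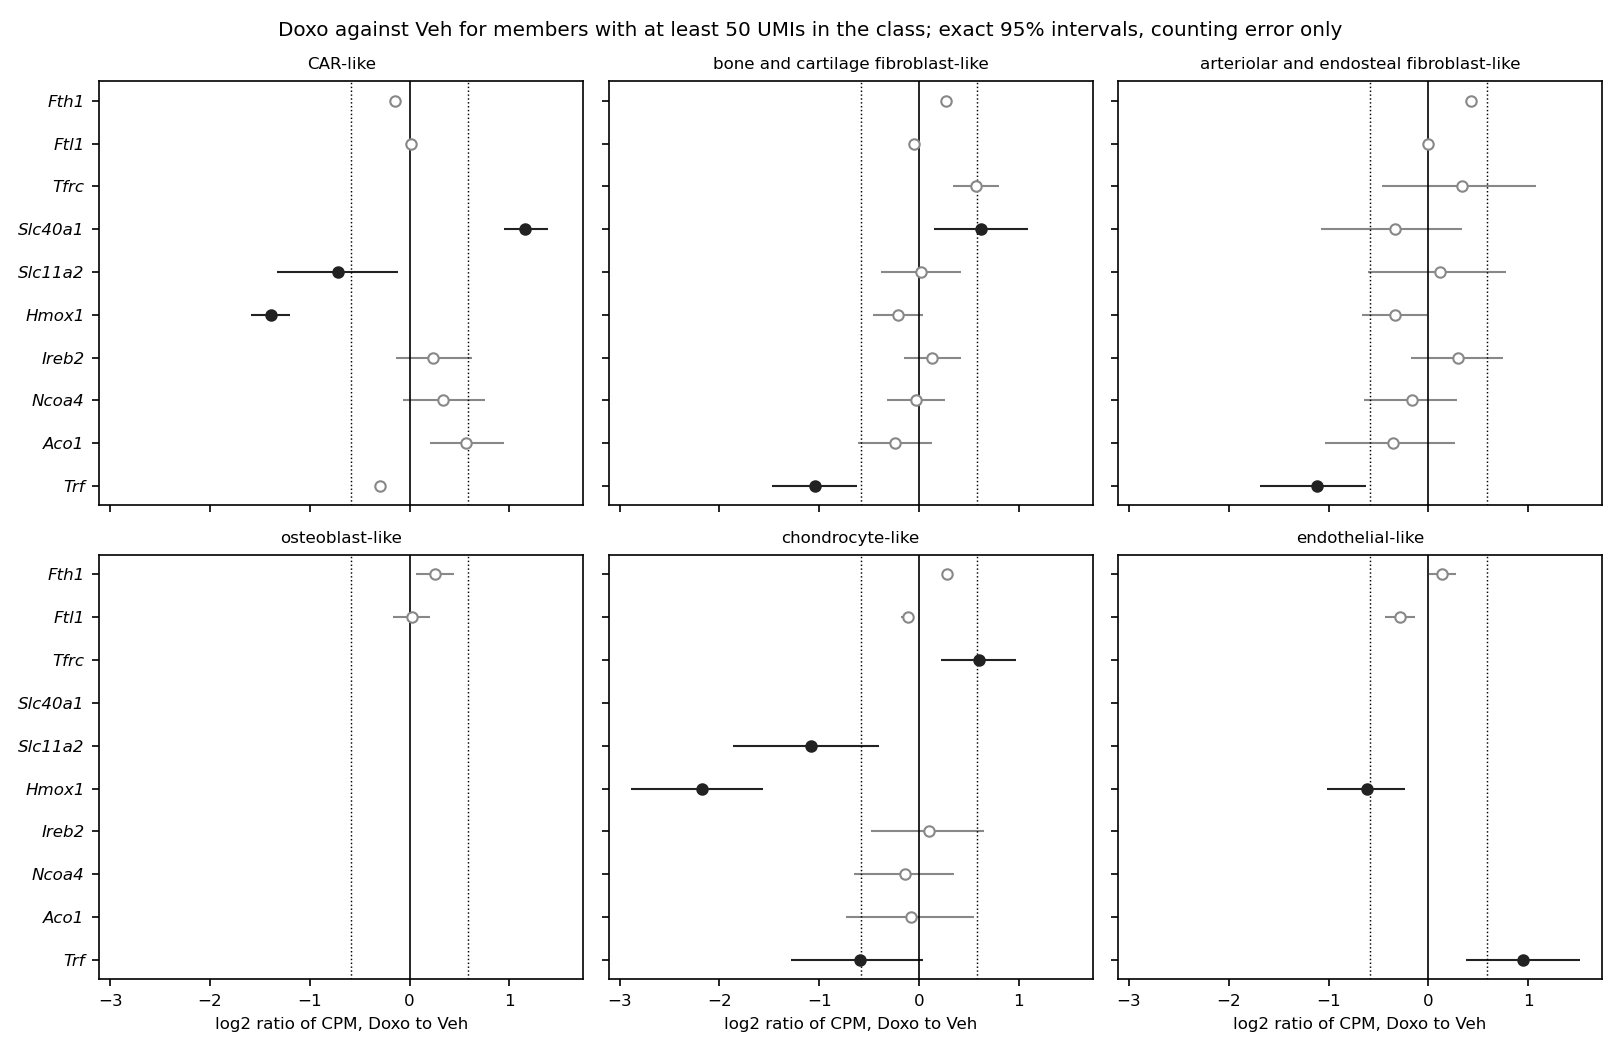
Log2 ratio of Doxo to Veh for each iron gene with at least 50 UMIs in a class, 1 panel for each class, with exact 95% intervals for counting error. Filled points are past 1.5-fold, the dotted lines; Slc40a1 stands to the right and Hmox1 to the left in CAR-like cells, and Fth1 lies right of 0 in every class but CAR-like cells.

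Slc40a1, the iron exporter (chromosome 1, 45908068 to 45926523, minus strand), was higher after Doxo in CAR-like cells. Its level was 91.1 CPM in Veh (interval 79.6 to 104) and 204 CPM in Doxo (189 to 220), from 228 and 688 UMIs. The intervals did not overlap, and the log2 ratio was 1.16 (0.95 to 1.39). More cells held the message: 34.3% of CAR-like cells in Veh had a UMI (29.5% to 39.4%) and 56.1% in Doxo (51.2% to 60.8%). With every cell thinned to 2000 UMIs the shares were 19.1% and 28.3%. In chondrocyte-like cells, where the gene was scarcest, 5.28% and 3.43% of cells had a UMI, at the higher median depths given above. The 10 CAR-like cells with most Slc40a1 UMIs held 22.8% of them in Veh and 20.3% in Doxo, and the log2 ratio was 1.13 without the highest cell of each library.

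The CAR-like cells were clustered alone, again without the iron genes, at the lowest resolution tried that gave at least 3 populations. The number of populations was thus set beforehand and is not a result. Slc40a1 was higher in Doxo in both large populations. Population 1 (led by Car3, Kit, Fabp4 and Tagln) held 50.4% of CAR-like cells in Veh and 78.7% in Doxo. Population 2 (led by Ngp, S100a9, Ccl7, Ccl2 and other genes of neutrophils or inflammation) held 46.6% and 17.5%. Its neutrophil UMIs were nearly all from Veh, with 488 and 0 UMIs of Ngp and 1727 and 10 of S100a9. Only 8 Veh and 3 Doxo cells of the whole CAR-like class held at least 5 neutrophil UMIs. Most neutrophil UMIs of population 2 in Veh thus lay in few cells and do not describe its typical cell. Slc40a1 was at 123 CPM in Veh and 218 in Doxo in population 1 for a log2 ratio of 0.83 (0.55 to 1.12). It was at 66.6 and 192 CPM in population 2 for a ratio of 1.52 (1.11 to 1.95). Population 3 had 11 and 16 cells, with a median of 14017 and 20582 UMIs against 6226 and 7317 in all CAR-like cells. Its leading genes included Angptl7, Cilp, S100a4 and Prg4, markers used for bone and cartilage fibroblast-like cells. Whether it was made of doublets was not tested. Slc40a1 was there at 93.1 and 113 CPM, and the intervals overlapped. The Slc40a1 ratio was thus past 1.5-fold within each large population, although in population 2 of Doxo 10 cells held 57.3% of the UMIs.

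Outside CAR-like cells Slc40a1 was scarce. In bone and cartilage fibroblast-like cells it was at 5.94 CPM in Veh and 9.13 in Doxo, from 66 and 98 UMIs for a log2 ratio of 0.62 (0.15 to 1.09). In arteriolar and endosteal fibroblast-like cells it was at 15.0 and 11.7 CPM, and the interval of the ratio spanned 0 (-1.08 to 0.34). Endothelial-like cells had 6 and 12 UMIs, osteoblast-like cells 7 and 2, and chondrocyte-like cells 19 and 7. These sums were too small to be counted.

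The exporter works with a copper oxidase, and these genes were on a list of further iron genes. Heph (hephaestin, the membrane oxidase that pairs with ferroportin) was at 34.0 CPM in Veh and 80.4 in Doxo in CAR-like cells for a log2 ratio of 1.24 (0.89 to 1.61), and at 48.5 and 90.1 CPM in population 1 (0.88, 0.44 to 1.37). It had 5 UMIs in each library in bone and cartilage fibroblast-like cells. Cp (ceruloplasmin, the secreted oxidase) went the other way, at 751 CPM in Veh and 584 in Doxo for a ratio of -0.36 (-0.46 to -0.27). Bmp6, the signal that induces hepcidin in liver, was at 268 and 169 CPM (-0.67, -0.83 to -0.51). Hamp (hepcidin, the hormone that degrades ferroportin) had 0 and 2 UMIs.

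Hmox1 (chromosome 8, 75093621 to 75100589, plus strand) differed more than any other counted member in CAR-like cells, and its direction depended on which of these cells were taken. Hmox1 breaks heme down and is induced by heme and by oxidative stress. In all CAR-like cells it was at 260 CPM in Veh (240 to 281) and 98.9 CPM in Doxo (88.5 to 110) for a log2 ratio of -1.39 (-1.59 to -1.20). In population 1 alone it was at 34.7 CPM in Veh (24.1 to 48.2) and 67.2 CPM in Doxo (57.4 to 78.2) for a ratio of 0.94 (0.42 to 1.52). In population 2 it was at 466 CPM in Veh (430 to 504) and 259 CPM in Doxo (219 to 305) for a ratio of -0.84 (-1.11 to -0.58). Population 2 thus had the higher level in both libraries, and it was the smaller share of CAR-like cells in Doxo.

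Hmox1 was also uneven from cell to cell. Of CAR-like cells 33.8% had a UMI in Veh and 25.9% in Doxo, and the 10 cells with most held 45.9% and 48.6% of the UMIs. In population 1 of Doxo, 1 cell held 60 of 167 Hmox1 UMIs. With the cell with most UMIs left out in each library, the ratio in population 1 was 0.51, and no longer past 1.5-fold, and with cells thinned to 2000 UMIs it was 0.31. The ratio in all CAR-like cells was -1.57 without these cells.

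Genes of inflammation, of the early response and of neutrophils also differed in CAR-like cells. The summed level of 8 inflammatory genes (Il6, Ccl2, Ccl7, Cxcl1, Cxcl2, Nfkbia, Tnfaip3 and Gdf15) was 5296 CPM in Veh and 731 in Doxo in CAR-like cells, and 8 of 8 were past 1.5-fold lower. It was 405 and 346 CPM in population 1 and 9246 and 2034 CPM in population 2. The summed level of 10 early response genes, which can rise during tissue digestion, was 1534 CPM in Veh and 4964 in Doxo in population 1, and 23136 and 36076 CPM in population 2. Neutrophil genes summed to 127 and 94.5 CPM in population 1 and to 2875 and 62.7 CPM in population 2. Leaving out the cells with at least 5 neutrophil UMIs or at least 5 hemoglobin UMIs gave ratios of -1.37 and -1.38 for Hmox1 and of 1.21 and 1.24 for Slc40a1 in CAR-like cells. The part of the inflammatory and early response genes in the Hmox1 values was not tested.

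**Figure D3:**
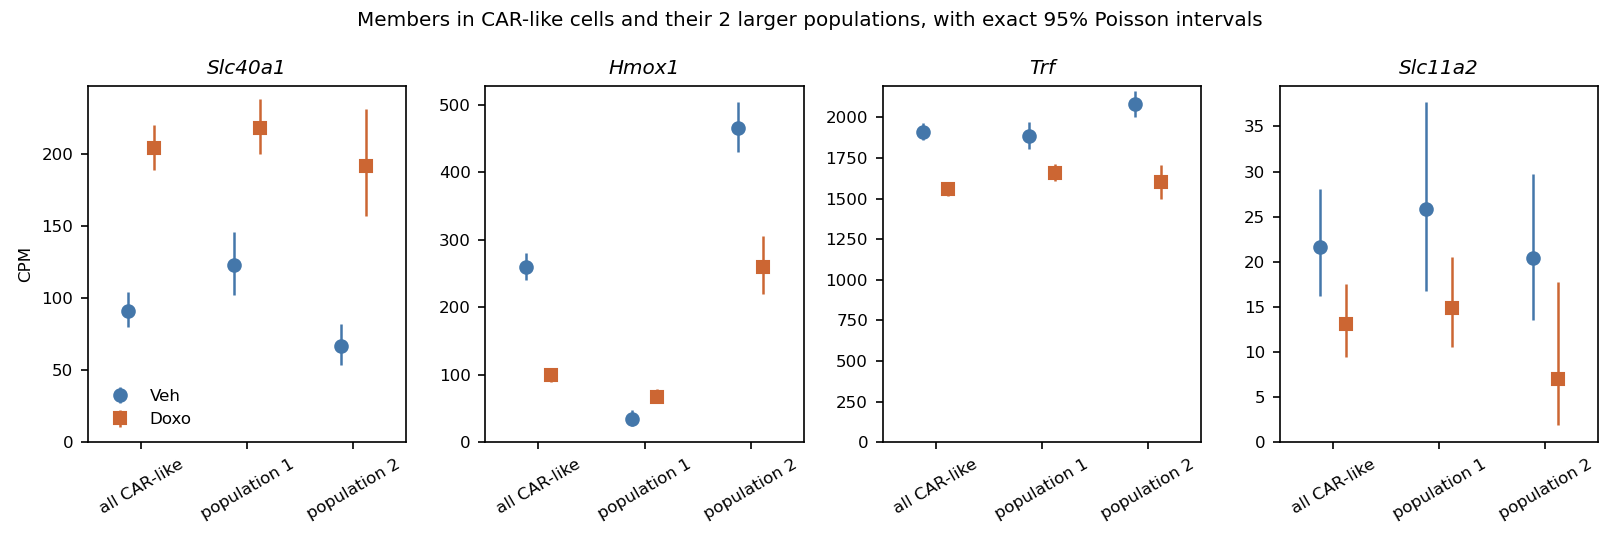
Level (CPM, linear axes from 0) of Slc40a1, Hmox1, Trf and Slc11a2 in all CAR-like cells and in the 2 larger populations, with circles for Veh, squares for Doxo and bars for exact 95% Poisson intervals. Slc40a1 is higher in Doxo in each set, while Hmox1 is lower in the whole class and in population 2 and higher in population 1.

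Hmox1 was also lower in chondrocyte-like and endothelial-like cells. In chondrocyte-like cells it was at 34.0 CPM in Veh and 7.42 CPM in Doxo, from 165 and 23 UMIs for a log2 ratio of -2.17 (-2.89 to -1.56). The share of cells with a UMI was 25.6% and 9.80%, at the unequal median depths given above. Thinned to 2000 UMIs, 5.42% of Veh cells and 1.99% of Doxo cells of this class had one. In endothelial-like cells, where Hmox1 was highest, it was at 315 and 206 CPM for a ratio of -0.61 (-1.02 to -0.23), and 10 cells held 63.8% of the UMIs in Veh and 84.7% in Doxo. That ratio was -0.28, no longer past 1.5-fold, without cells with at least 5 hemoglobin UMIs, and -3.72 without cells holding a macrophage marker UMI. In this class Mrc1 gave 141 of 147 such UMIs in Veh and 100 of 109 in Doxo. Adgre1, C1qb, Cd163 and Ptprc had none, so that setting acts mainly through Mrc1 and does not show macrophages there. In both fibroblast-like classes the difference was small: 26.3 and 22.7 CPM in bone and cartilage cells (-0.21, -0.46 to 0.04), and 66.3 and 52.6 CPM in arteriolar and endosteal cells (-0.33, -0.66 to -0.01). Osteoblast-like cells had 19 and 3 UMIs. Ordered by level, endothelial-like cells stood above CAR-like cells and these above arteriolar and endosteal fibroblast-like cells in both libraries, with no overlap of neighbouring intervals except between endothelial-like and CAR-like cells of Veh (275 to 360 and 240 to 281).

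Genes that control Hmox1 were on the same further list. Bach1, the heme-sensing repressor of Hmox1, was at 122 CPM in Veh and 50.2 in Doxo in CAR-like cells (-1.28, -1.56 to -1.01), at 38.8 and 17.1 CPM in chondrocyte-like cells (-1.17, -1.65 to -0.73) and at 267 and 151 CPM in endothelial-like cells (-0.81, -1.29 to -0.37). In population 1 it was at 56.5 and 44.2 CPM (-0.36, -0.83 to 0.14). Nfe2l2 (NRF2, the activator) was at 125 and 86.7 CPM in CAR-like cells (-0.53, -0.76 to -0.29). Of its known targets, Txnrd1 (thioredoxin reductase) was at 137 and 77.2 CPM in CAR-like cells (-0.82, -1.06 to -0.59) and at 229 and 65.5 CPM in chondrocyte-like cells (-1.80, -2.03 to -1.59). Srxn1 (sulfiredoxin) was at 320 and 171 CPM in chondrocyte-like cells (-0.91, -1.05 to -0.76). Of the 11 genes on this list of regulators and targets, 9 were counted in CAR-like cells. Of these, 0 were past 1.5-fold higher and 4 lower, where 10.3% and 7.81% of all genes counted were. Their median log2 ratio was -0.53, against 0.05 over all genes counted. In population 1, 8 were counted, with 0 past 1.5-fold in either direction, beside 7.47% higher and 9.10% lower of all genes. Their median there was 0.00, against -0.05 over all genes counted.

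The ferritin chains differed from each other. Fth1, the chain that oxidizes iron (chromosome 19, 9980598 to 9985098, plus strand), was at 6873 CPM in Veh and 8292 in Doxo in bone and cartilage fibroblast-like cells for a log2 ratio of 0.27 (0.26 to 0.28). It was at 7100 and 9567 CPM in arteriolar and endosteal fibroblast-like cells (0.43, 0.40 to 0.46) and at 4228 and 5148 CPM in chondrocyte-like cells (0.28, 0.25 to 0.31). It was at 671 and 801 CPM in osteoblast-like cells (0.26, 0.06 to 0.45) and at 1873 and 2069 CPM in endothelial-like cells (0.14, 0.01 to 0.28). CAR-like cells were the class on the other side, at 4386 and 3951 CPM (-0.15, -0.19 to -0.11), and population 1 was at 3577 and 3729 CPM (0.06, 0.00 to 0.12). None of these reached 1.5-fold, and the narrow intervals cover counting error only. Under the alternatives described at the end, the ratio ranged from -0.69 to 0.44 in osteoblast-like cells. It ranged from -0.02 to 0.22 in endothelial-like and from -0.20 to 0.06 in CAR-like cells. In osteoblast-like cells 10 cells held 35.7% of the Fth1 UMIs in Veh and 49.5% in Doxo.

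Ftl1, the chain that helps iron form its mineral core, had log2 ratios between -0.28 and 0.02 in the 6 classes. It was 0.01 (-0.04 to 0.06) in CAR-like cells, from 2111 CPM in Veh and 2128 in Doxo. It was 0.00 (-0.05 to 0.04) in arteriolar and endosteal fibroblast-like cells, where it was highest, at 2415 and 2407 CPM. The bone and cartilage fibroblast-like class had -0.05, osteoblast-like cells 0.02, chondrocyte-like cells -0.11 and endothelial-like cells -0.28 (-0.43 to -0.13). In population 1 it was higher, at 1641 and 2096 CPM (0.35, 0.27 to 0.43).

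The ratio of Fth1 to Ftl1 UMIs does not depend on how libraries are scaled. It was 4.33 in Veh and 5.40 in Doxo in bone and cartilage fibroblast-like cells, 2.94 and 3.97 in arteriolar and endosteal fibroblast-like cells, 4.14 and 5.45 in chondrocyte-like cells, and 1.04 and 1.39 in endothelial-like cells. On the log2 scale these changes were 0.32 (0.29 to 0.35), 0.43 (0.38 to 0.49), 0.40 (0.32 to 0.47) and 0.43 (0.22 to 0.63). In osteoblast-like cells it was 0.837 and 0.987, and the interval of the change spanned 0 (-0.03 to 0.51). In CAR-like cells it went down, from 2.08 to 1.86, a change of -0.16 (-0.23 to -0.10), and it was also lower in population 1 (2.18 and 1.78) and population 2 (1.96 and 1.69). Ferritin genes have near-identical copies in the mouse genome, with 2 genes named as pseudogenes of each chain in the annotation, so reads can be lost or split among copies.

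**Figure D4:**
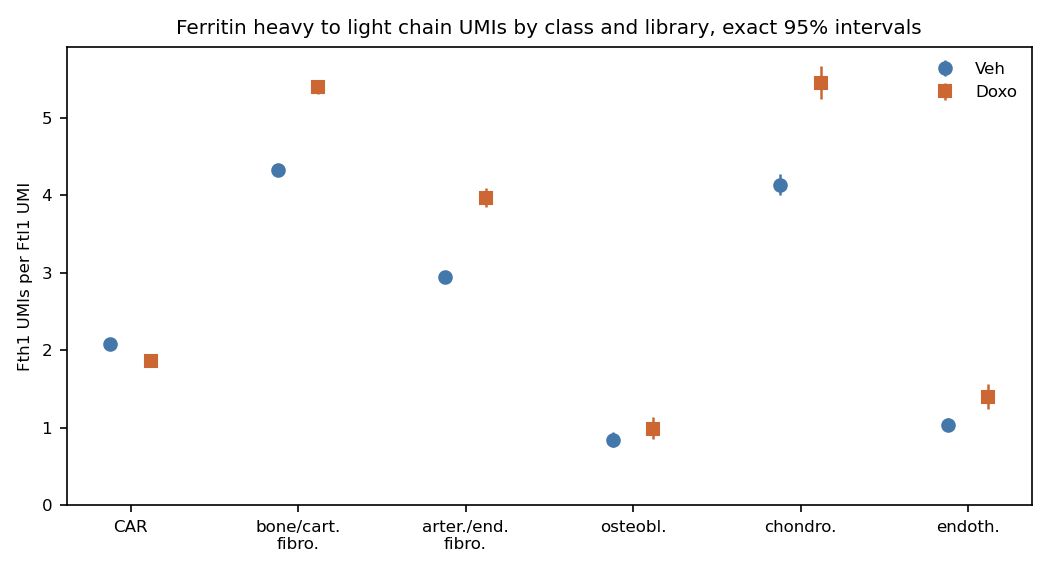
Fth1 UMIs for each Ftl1 UMI (linear axis from 0) in the 6 classes, with circles for Veh, squares for Doxo and bars for exact 95% intervals for counting error. The ratio is higher in Doxo in 5 classes, with overlapping intervals in osteoblast-like cells, and lower in CAR-like cells.

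The early response genes also differed between libraries in these classes. Their summed level was 10380 CPM in Veh and 15787 in Doxo in bone and cartilage fibroblast-like cells, 10820 and 14756 in arteriolar and endosteal fibroblast-like cells, 11908 and 24224 in chondrocyte-like cells and 11776 and 13545 in endothelial-like cells. It was 13152 and 11239 in CAR-like cells and 10147 and 7646 in osteoblast-like cells. The classes with more of this RNA in Doxo also had more Fth1. Osteoblast-like cells had less of it and more Fth1, though their Fth1 ratio was as low as -0.69 under the alternatives. Population 2 of the CAR-like cells had more early response RNA, as given above, and less Fth1. Its Fth1 was at 4838 CPM in Veh and 4211 in Doxo (-0.20, -0.27 to -0.13). The part of early response RNA in the Fth1 values was not tested.

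Of the uptake genes, Tfrc was past 1.5-fold higher in Doxo in chondrocyte-like cells, and Slc11a2 past 1.5-fold lower in CAR-like and chondrocyte-like cells. Tfrc (chromosome 16, 32608920 to 32632794, plus strand) encodes CD71, an antigen the sort was meant to deplete, so its levels describe cells that passed that sort. It was at 23.7 CPM in Veh and 35.1 in Doxo in bone and cartilage fibroblast-like cells, from 263 and 377 UMIs for a log2 ratio of 0.57 (0.34 to 0.80), just under 1.5-fold. It was at 25.2 and 38.1 CPM in chondrocyte-like cells, from 122 and 118 UMIs for a ratio of 0.60 (0.22 to 0.97), just past it. In arteriolar and endosteal fibroblast-like cells it was at 9.37 and 11.7 CPM (0.34, -0.46 to 1.08). CAR-like cells had 19 and 16 UMIs, endothelial-like cells 14 and 10 and osteoblast-like cells 5 and 2. By level in Doxo, chondrocyte-like, bone and cartilage fibroblast-like and endothelial-like cells could not be ordered, and the first 2 stood above the other 3 classes. Erythroid cells are rich in Tfrc, and their summed genes were at 686 CPM in Veh and 3.55 in Doxo in chondrocyte-like cells, and bone and cartilage fibroblast-like cells had 366 and 2.89 CPM of them. Without cells with at least 5 hemoglobin UMIs the Tfrc ratio was 0.63, past 1.5-fold, in bone and cartilage fibroblast-like cells, while chondrocyte-like cells had 0.59.

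Slc11a2, which moves iron out of endosomes (chromosome 15, 100387898 to 100425072, minus strand, overlapping Gm5475 on the other strand), was lower in Doxo in CAR-like and chondrocyte-like cells. It was at 21.6 CPM in Veh (16.2 to 28.1) and 13.1 CPM in Doxo (9.49 to 17.5) in CAR-like cells, from 54 and 44 UMIs for a log2 ratio of -0.72 (-1.33 to -0.12). The levels' own intervals overlapped. In population 1 the ratio was -0.80 (-1.55 to -0.01). In chondrocyte-like cells it was at 15.3 and 7.10 CPM, from 74 and 22 UMIs (-1.08, -1.86 to -0.40). There 26.4% of Veh cells and 9.31% of Doxo cells had a UMI, at the unequal median depths given above. Thinned to 2000 UMIs, 3.33% of Veh cells and 1.99% of Doxo cells of this class had one. In both fibroblast-like classes the ratio was close to 0, at 0.02 (-0.38 to 0.42) and 0.12 (-0.60 to 0.78). The gene makes messages with and without an iron-responsive element at the 3′ end, and these were not told apart here.

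Trf, the blood carrier of iron made mainly by liver (chromosome 9, 103204001 to 103230444, minus strand, overlapping Gm20425 on the same strand), was abundant in CAR-like cells and somewhat lower in Doxo. It was at 1912 CPM in Veh (1858 to 1967) and 1558 CPM in Doxo (1516 to 1601) for a log2 ratio of -0.30 (-0.35 to -0.24). The share of cells with a UMI was 76.6% and 76.9%. In population 1 the ratio was -0.19 (-0.26 to -0.11), and in population 2 it was -0.38 (-0.49 to -0.27). With each cell weighing the same, it was -0.13 in all CAR-like cells and -0.01 in population 1.

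Trf outside CAR-like cells was between 6.52 and 151 CPM in the named classes. It was lower in Doxo in bone and cartilage fibroblast-like cells, at 13.4 and 6.52 CPM (-1.04, -1.47 to -0.62), and in arteriolar and endosteal fibroblast-like cells, at 39.3 and 17.9 CPM (-1.12, -1.69 to -0.62). In Veh 10 cells held 58.4% of the UMIs in the former class, and with cells thinned to 2000 UMIs its ratio was 0.03. In chondrocyte-like cells it was at 14.2 and 9.36 CPM, and the interval spanned 0 (-0.59, -1.28 to 0.04), with a ratio of 0.03 when each cell weighed the same. Osteoblast-like cells had 24 and 13 UMIs. In endothelial-like cells it was at 78.5 and 151 CPM (0.95, 0.38 to 1.52), but 1 Doxo cell held 27 of 53 UMIs, and with the cell with most UMIs left out in each library the ratio was 0.16. Adipoq, a marker of CAR-like cells, differed in the same directions. It was at 15.3 CPM in Veh and 6.61 in Doxo in bone and cartilage fibroblast-like cells, at 27.9 and 7.05 CPM in arteriolar and endosteal fibroblast-like cells, and at 15.7 and 120 CPM in endothelial-like cells. Lepr, another marker, was lower in Doxo in both fibroblast-like classes too, but was at 52.8 and 42.9 CPM in endothelial-like cells. The markers Cxcl12 and Kitl were also lower in both fibroblast-like classes. In endothelial-like cells Cxcl12 was at 395 and 1494 CPM and Kitl at 237 and 303 CPM. Expressed against its level in CAR-like cells, Trf was at 0.702% and 0.419% in bone and cartilage fibroblast-like cells and Adipoq at 0.522% and 0.190%. Whether these Trf UMIs came from the cells themselves or from RNA of CAR-like cells was not tested.

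None of the sensors and the ferritin receptor was past 1.5-fold in a class where it was counted, and Aco1 in CAR-like cells came nearest, with an interval that excluded 0. Aco1 (IRP1) was at 36.7 CPM in Veh and 54.6 in Doxo in CAR-like cells, where it was highest, from 92 and 184 UMIs for a log2 ratio of 0.57 (0.20 to 0.95), just under 1.5-fold. In population 1 it was at 42.6 and 57.1 CPM (0.41, -0.08 to 0.95), and in population 2 at 31.8 and 47.0 CPM (0.57, -0.19 to 1.30). Its ratio lay between -0.35 and -0.08 in the 3 other classes where it was counted, each with an interval spanning 0. Ireb2 (IRP2) was at 37.1 and 43.9 CPM in CAR-like cells (0.24, -0.14 to 0.63) and at 18.4 and 20.1 CPM in bone and cartilage fibroblast-like cells (0.13, -0.15 to 0.42). Ncoa4 was at 31.6 and 40.1 CPM in CAR-like cells (0.34, -0.07 to 0.76) and at 18.9 and 18.5 CPM in bone and cartilage fibroblast-like cells (-0.03, -0.32 to 0.26). The intervals of these last genes allow differences of up to 0.76 in CAR-like cells, so they do not show that the levels were alike.

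The counts of members in the other classes were read against those of all genes. In bone and cartilage fibroblast-like cells 10 members were counted, with 1 past 1.5-fold higher and 1 lower, where 2.77% and 6.30% of all genes counted were. In arteriolar and endosteal fibroblast-like cells 10 were counted, with 0 higher and 1 lower, beside 4.70% and 6.79%. In chondrocyte-like cells 9 were counted, with 1 higher and 3 lower, beside 11.0% and 9.81%. In endothelial-like cells 4 were counted, with 1 higher and 1 lower, beside 9.16% and 7.69%. In osteoblast-like cells only Fth1 and Ftl1 were counted and neither was past 1.5-fold, beside 8.78% and 15.6%. In population 1 of the CAR-like cells 9 were counted, with 2 higher and 1 lower, beside 7.47% and 9.10%. The member medians lay between -0.11 and 0.27, and those of all genes between -0.08 and 0.05.

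Of the 70 further iron genes listed, 68 were in the tables and 51 were counted in CAR-like cells. Beyond Heph, Bmp6, Bach1 and Txnrd1, described above, those past 1.5-fold there included the mitochondrial gene Lyrm4 (6.79 CPM in Veh and 13.4 in Doxo), which acts in making iron-sulfur clusters, and, lower in Doxo, Maff (97.1 and 29.4 CPM, a partner of BACH1 and NRF2) and Gclc (41.5 and 24.9 CPM, glutathione synthesis). In all, 3 were higher and 5 lower, where 10.3% and 7.81% of all genes counted were, and the median log2 ratio was 0.03. By group, 0 of 6 counted genes of uptake and reduction, 2 of 4 of export and systemic control, 0 of 3 chaperones and sensors, 2 of 14 of mitochondrial iron and 0 of 15 of heme synthesis and breakdown were past 1.5-fold in CAR-like cells.

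In chondrocyte-like cells 5 of 54 counted further iron genes were higher and 11 lower, beside 11.0% and 9.81% of all genes counted. Lower were the iron and zinc importer Slc39a14 (122 CPM in Veh and 55.2 in Doxo), the metal reductase Steap1 (74.5 and 34.8) and lipocalin Lcn2 (13.4 and 1.94). The Lcn2 UMIs came from only 5 of 246 Veh cells and 3 of 204 Doxo cells. Also lower were Cp (18.6 and 11.9), Bmp6 (8.25 and 3.87), the mitochondrial importer Slc25a37 (18.4 and 9.68), the heme enzyme Urod (14.2 and 5.16) and Maff (151 and 93.6), beside Bach1, Txnrd1 and Srxn1. Higher were the reductases Steap2 (20.4 and 32.9 CPM) and Cybrd1 (15.9 and 28.7), Isca1 of iron-sulfur cluster assembly (log2 ratio 0.88), Alas1 of heme synthesis (11.6 and 21.6) and the quinone reductase Nqo1 (7.01 and 11.6).

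In bone and cartilage fibroblast-like cells 1 of 57 counted further genes was higher, Cybrd1 (6.21 and 10.4 CPM), and 1 lower, the transporter Abcb6 (7.38 and 3.91), beside 2.77% and 6.30% of all genes counted. In arteriolar and endosteal fibroblast-like cells 3 of 49 were higher, Steap4 (37.0 and 56.4 CPM), Isca1 (14.0 and 24.0) and the last enzyme of heme synthesis, Fech (32.8 and 49.3). Lower there were 4, the iron-sulfur co-chaperone Hscb (19.4 and 6.58), Urod (31.8 and 16.9), the biliverdin reductase Blvra (24.8 and 15.0) and Txnrd1 (104 and 64.8), beside 4.70% and 6.79% of all genes. In osteoblast-like cells 2 of 14 were higher and 5 lower, beside 8.78% and 15.6%, and those whose interval excluded 0 were the cluster scaffold Iscu, higher (55.6 and 94.5 CPM), and Nfe2l2 (80.3 and 22.6) and Mafg (66.7 and 20.5), lower. In endothelial-like cells 4 of 15 were higher and 3 lower, beside 9.16% and 7.69%, and those whose interval excluded 0 were the importer Slc39a8, higher (log2 ratio 1.17, 0.44 to 1.92), and Bach1 and Txnrd1 (171 and 74.3), lower.

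Fth1 and Ftl1 were the members with at least 50 UMIs in each of the 6 classes. Over the 12 sums of 6 classes and 2 libraries, among 2023 genes with as many UMIs, the genes with the most similar levels were Tsc22d3, Pam and Park7 for Fth1 (Pearson r of log2(CPM + 1) 0.95 for each) and Psma2, Krcc1 and Sarnp for Ftl1 (0.96, 0.96 and 0.95). The 12 sums share 2 libraries and differ in depth, so these values are a description.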

How the data were processed

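Bone cells from 1 Veh and 1 Doxo library were analyzed. The submitters' processing notes name Cell Ranger, Partek and build GRCm38 (mm10), and the authors aligned with Cell Ranger. The deposited values are log2 values for each gene and cell. Within each cell, the values before that log2 step sum to 1000000, and they are themselves logarithms of UMIs scaled to 1000000, so both steps were undone. Of values up to 50 UMIs, 99.9% came out within 0.1 of a whole UMI in each library, and 21 gene symbols, none a member, did not.

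Recovered UMIs were clustered with Seurat 5.3.0 in R 4.3.3 (2000 variable genes without iron genes, 35 principal components, resolution 0.1). CAR-like cells alone were clustered at 0.2, the lowest resolution tried that gave at least 3 clusters. Endothelial-like cells were set aside before a second clustering. A cluster was named when at least 3 markers of a class were found in 10% of its cells and 1 log2 unit higher than elsewhere. The cell filters of the study (200 to 10000 genes, 100 to 100000 UMIs and up to 10% mitochondrial UMIs) removed none. Scrublet in scanpy 1.11.5 called 9 Veh and 3 Doxo cells doublets, under 0.5% of cells. It is taken not to have worked, and doublets were left in.

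UMIs were summed by class and library, and ratios and exact intervals were computed in Python 3.11.15 with scipy 1.17.1. With 1 library for each condition, no test was made. Intervals and floors cover counting error only. The steps were tested on simulated data. Genes named in the text were the members, further iron genes past 1.5-fold in CAR-like cells, those past it elsewhere with an interval excluding 0, and the 3 genes most like a member. Hamp, Cp and Nfe2l2 in CAR-like cells, and values of named genes in population 1 and in classes where they were not past 1.5-fold, were added after values were seen. So were Adipoq, Lepr, Cxcl12 and Kitl. Some further iron genes that this rule names are not reported here. The members and lists were chosen with earlier results of these data known. Alternatives concerned cell filters, doublets, clustering, depth, scaling, the UMI added and cells with RNA of other types. The doublet alternative left out only the 9 Veh and 3 Doxo cells called, so it cannot show how doublets bear on the ratios.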

Additional observations from a re-analysis of the deposited data

Results flagged for a closer look

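The log2 ratio of Doxo to Veh for Hmox1 was above 0 in population 1 of the CAR-like cells (0.94) and below 0 in chondrocyte-like cells (-2.17), a difference of 3.11. Each ratio was past 1.5-fold with an interval excluding 0. With 1 library for each condition the difference was not tested, and without the cell with most Hmox1 UMIs in each library the ratio in population 1 was 0.51.

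The ratio for Trf was above 0 in endothelial-like cells (0.95) and below 0 in arteriolar and endosteal fibroblast-like cells (-1.12), a difference of 2.07, which was not tested either. The ratio in endothelial-like cells was 0.16 without the cell with most Trf UMIs in each library.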

How the results depend on the processing

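Of 53 counted pairs of member and class, population 1 included, 15 were past 1.5-fold. Of these, 11 kept their sign and 7 kept a ratio of at least 1.5-fold under every alternative that gave one, whether or not 50 UMIs were left. The 7 were Slc40a1 and Slc11a2 in CAR-like cells and in their population 1, Slc11a2 and Hmox1 in chondrocyte-like cells, and Trf in arteriolar and endosteal fibroblast-like cells. Population 1 is part of the CAR-like cells, so its ratios are not separate from theirs. It was not formed anew under other clusterings, so its ratios met fewer alternatives. The same counts over all genes were not made, so these numbers say nothing particular about the members. After thinning, the ratios of chondrocyte-like and of arteriolar and endosteal fibroblast-like cells had under 50 UMIs and were no longer counted. Slc40a1 in CAR-like cells ranged from 0.82 to 1.52. Hmox1 in CAR-like cells was 0.94 in population 1 only and otherwise between -1.57 and -0.84. Trf reversed to 0.03 with cells thinned to 2000 UMIs in bone and cartilage fibroblast-like cells, to 0.03 with each cell weighing the same in chondrocyte-like cells, and in endothelial-like cells to -0.13 under a stricter cell filter (1000 genes or more, mitochondrial share up to 5%) and to -0.07 without cells holding a macrophage marker UMI. In the last setting Hmox1 was -3.72 in endothelial-like cells, and Mrc1 gave most macrophage marker UMIs of that class.

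The number of members past 1.5-fold was 3 in CAR-like cells and 3 in population 1, and moved by at most 1.5 times there. In bone and cartilage fibroblast-like cells it was 2, and became 1 with iron genes kept among the variable genes, 1 with each cell weighing the same and 0 after thinning. In arteriolar and endosteal fibroblast-like cells it was 1, and became 0 after thinning and 3 with each cell weighing the same. In osteoblast-like cells it was 0, and became 1 under the stricter cell filter, 4 with classes from marker genes per cell and 4 with a minimum of 10 UMIs. In chondrocyte-like cells it was 4, and became 2 under the stricter filter and 0 after thinning. In endothelial-like cells it was 2, and became 0 under the stricter filter, with classes from marker genes, after thinning and with each cell weighing the same, 4 with a minimum of 10 UMIs, and 1 with 20 principal components, without cells holding a macrophage marker UMI, without cells with at least 5 hemoglobin UMIs, and without the cell with most UMIs of the member. Thinning leaves fewer members with 50 UMIs by construction, and a minimum of 10 lets more in. The cause of the other moves was not tested. Shares of all genes past 1.5-fold were taken at the main setting only, so the counts under alternatives have none beside them. The settings that leave out cells with neutrophil or hemoglobin UMIs, take population 2 only or leave out the highest cell were chosen after seeing the data.

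Depth limits the members under 50 UMIs, which were 8 of 10 in osteoblast-like and 6 of 10 in endothelial-like cells. No paired analysis was possible because there was 1 library for each condition and the labels give no replicate numbers.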

Other observations

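Ftl1-ps1, a copy of Ftl1 that the tables list as a gene of its own, was higher in Doxo in the classes where it had at least 50 UMIs. It was at 18.8 CPM in Veh and 31.5 in Doxo in CAR-like cells, at 11.9 and 23.7 in bone and cartilage fibroblast-like cells, at 14.7 and 32.9 in arteriolar and endosteal fibroblast-like cells and at 9.28 and 15.8 in chondrocyte-like cells. Its log2 ratios were 0.74, 0.99, 1.16 and 0.77. Reads of the copy and of Ftl1 may not be told apart in full.

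The unnamed cluster had Fth1 at 4861 CPM in Veh and 7047 in Doxo for a log2 ratio of 0.54 (0.47 to 0.60), and Ftl1 at 2539 and 2201 CPM (-0.21, -0.31 to -0.10). Its Fth1 to Ftl1 ratio was 1.91 in Veh and 3.20 in Doxo. In population 3 of the CAR-like cells, whose leading genes included fibroblast markers, Hmox1 had 0 UMIs in 11 Veh cells. The exact 95% Poisson interval of that sum reaches 21.5 CPM. It had 17 UMIs in 16 Doxo cells, or 55.1 CPM.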
